A study of Mus musculus with 4 samples.

Results

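The 9 genes described here encode subunits of cytoplasmic dynein and were chosen by name from the 21957 genes of a mouse oocyte RNA-seq table: *Dync1h1*, *Dync1i1*, *Dync1i2*, *Dync1li1*, *Dync1li2*, *Dynll1*, *Dynll2*, *Dynlrb1* and *Dynlt3*. All 9 were listed above 0 in every library. Oocytes came from B6D2F1 females (a C57BL/6 by DBA cross) aged 6 to 8 weeks that had been primed with gonadotropin, and were freed of cumulus cells. GV oocytes, still arrested with an intact nucleus (the germinal vesicle), were taken at 0 h of culture. The others were cultured for 12 h without tubastatin A (MII) or with it (TubA10 and TubA20). Tubastatin A (TubA) was developed as an inhibitor of HDAC6, a mostly cytoplasmic deacetylase whose best known substrate is α-tubulin. The sample titles give 10 μM for TubA10 and 20 μM for TubA20, while the treatment field gives 20 μM and 11 μM for the same samples, so the order of the doses rests on the titles and the study's methods. TubA was dissolved in DMSO, and whether the cultures without TubA received DMSO is not stated in the sources used here. The title and source name of the MII sample call it an embryo, whereas the study's methods describe matured oocytes.

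Each library was made from a pool of 100 oocytes, and each of the 4 conditions had 1 library. No difference could therefore be set against the spread between replicates, no p-value is given, and "higher" and "lower" compare libraries. Values are FPKM, fragments per kilobase of transcript per 1000000 mapped fragments, and differences are log2 ratios of FPKM + 1, a scale on which differences of genes with low values come out too small. A gene is counted as higher or lower past 2-fold on that scale. MII oocytes were kept only if they had extruded a polar body, and no such selection is stated for the TubA-treated oocytes, so that stage reached and TubA cannot be told apart in a comparison of the treated libraries with MII. Poly(A) RNA was selected with oligo(dT), and less RNA of a gene and shorter poly(A) tails on it cannot be told apart in these values, nor can RNA per oocyte and number of oocytes.

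Cytoplasmic dynein is the main motor that walks toward the minus ends of microtubules. A pair of heavy chains holds the ATPase ring and the microtubule-binding stalk, and their tails carry paired intermediate chains and light intermediate chains. Light chains of the LC8, roadblock and Tctex families bind the intermediate chains. The motor becomes processive with dynactin and an activating adaptor, and LIS1 with its partners NDE1 and NDEL1 helps to assemble that complex. In oocytes, which lack centrioles, dynein is known for gathering microtubule minus ends and NuMA at the spindle poles and for stripping checkpoint proteins from kinetochores. HDAC6 is known to bind dynein when it carries ubiquitinated protein to the aggresome.

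The labelled cell type was borne out by the marker genes. The 10 oocyte markers (among them *Zp3*, *Gdf9* and *Mos*) summed to between 16439 and 22263 FPKM per library, and none was under 196.7 FPKM. In TubA20 against GV, *Gdf9* and *Oosp1* were higher past 2-fold and *Zp1*, *Zp2* and *Zp3* lower (−1.08, −1.36 and −1.33), so oocyte markers differed along with the members. The 12 cumulus and granulosa cell markers summed to 15.5 FPKM in GV, 11.4 in MII, 8.93 in TubA10 and 14.6 in TubA20, with 3, 2, 5 and 4 of them at 0, and *Foxl2* was at 0 in every library. One of them, *Inha*, stood at 7.5 FPKM in GV and between 0.239 and 0.314 FPKM in the other libraries, while *Cyp19a1*, which made up most of the sum outside GV, had 6.14 FPKM in GV and 10.3 in TubA20. *Ptx3* and *Tnfaip6*, both at 0 in GV, were at 1.19 and 1.57 FPKM in TubA20. These markers were picked after their values were seen, and their part in the members' ratios was not tested. Of 6 blood cell markers, all were at 0 except for a sum of 0.00893 FPKM in TubA10. Summed over all genes, the table held between 568331 FPKM (MII) and 627340 FPKM (TubA20) per library. Genes above 0 numbered 14434 in TubA20 and between 15281 and 15440 in the other libraries, and the part of this gap in the TubA20 values below was not tested. Among genes with at least 5 FPKM in 1 of both libraries, the median log2 ratio against GV was 0.11 for MII, 0.15 for TubA10 and 0.23 for TubA20, and values below are to be read against these medians.

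The light chain genes *Dynll1* and *Dynlrb1* were the highest subunits in every library and were, at the deposited scaling, the only members more than 2-fold lower in every cultured library than in GV (*Dynll1* in TubA10 missed 2-fold with equal FPKM sums or equal *Gapdh*). *Dynll1* encodes LC8 light chain 1, a hub protein that also binds many partners outside dynein, and *Dynlrb1* encodes a roadblock light chain. The promoters of both are shown because these genes shared that direction. They are windows of 300 bases, from 250 before to 50 after the annotated start, taken from RefSeq on GRCm38.p6 and written 5′ to 3′ on the strand of the gene, with the letters CCAAT and GGGCGG in capitals on either strand (CCGCCC is GGGCGG on the other strand). The window of *Dynll1* is chr5:115300941-115301240 on the minus strand, and that of *Dynlrb1*, the nearer of its 2 windows to the start of the reference transcript, is chr2:155236283-155236582 on the plus strand.
Dynll1 promoter: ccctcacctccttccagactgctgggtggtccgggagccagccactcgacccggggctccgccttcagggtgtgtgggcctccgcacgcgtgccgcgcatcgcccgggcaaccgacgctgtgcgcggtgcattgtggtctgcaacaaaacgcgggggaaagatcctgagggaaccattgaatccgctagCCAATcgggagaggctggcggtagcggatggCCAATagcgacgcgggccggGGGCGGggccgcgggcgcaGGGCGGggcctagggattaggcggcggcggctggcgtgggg
Dynlrb1 promoter: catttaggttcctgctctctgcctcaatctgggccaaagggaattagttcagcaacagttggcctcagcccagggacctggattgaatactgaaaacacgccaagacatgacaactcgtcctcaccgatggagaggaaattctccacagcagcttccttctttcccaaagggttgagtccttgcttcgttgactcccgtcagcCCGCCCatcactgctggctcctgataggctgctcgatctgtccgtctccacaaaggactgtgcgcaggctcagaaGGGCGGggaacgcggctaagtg

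*Dynll1* has 2 CCAAT and 2 GGGCGG matches and 71% G and C, while *Dynlrb1* has no CCAAT, 2 GGGCGG matches and 55% G and C. Neither has the letters TATAAA. Over all 32851 promoter windows of this length, 37.4% held CCAAT, 35.7% GGGCGG and 13.6% TATAAA, and the median G and C content was 52.7%. Such a match is a description of letters, not of a bound site. A RefSeq window was matched for 7 of the 9 members. GGGCGG also occurred in the windows of *Dync1i2* (4 matches), *Dync1h1* (3), *Dync1li1* (3) and *Dynlt3* (2), and not in that of *Dync1i1*. It was thus not particular to the 2 genes shown.

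Fully grown oocytes are known to be nearly silent in transcription, and the 3′ UTR is known to hold the elements by which stored mRNAs gain or lose their tails. The 3′ UTRs were therefore read from the principal GENCODE M21 transcript of each member on GRCm38, on the sense strand only. The letters TTTTAT or TTTTAAT of a cytoplasmic polyadenylation element (CPE) occurred somewhere in the 3′ UTR of 4 members, namely *Dynlt3* (3 matches in 1720 bases), *Dynll2* (2 in 1908 bases), *Dync1i2* (2 in 542 bases) and *Dync1li2* (8 in 2902 bases), beside 54.4% of 20298 genes and 59.8% of the 7746 with at least 5 FPKM in 1 library. They were not found in *Dynll1* (1586 bases), *Dynlrb1* (313 bases), *Dync1li1* (937 bases), *Dync1i1* (557 bases) or *Dync1h1* (254 bases). For *Dynlt3*, *Dynll2* and *Dync1i2*, windows of 30 bases with the match nearest the end are shown in the sense direction, with the match in capitals. They lie at chrX:9654916-9654945 on the minus strand, chr11:87979687-87979716 on the minus strand and chr2:71262935-71262964 on the plus strand, and the matches begin 667, 180 and 357 bases before the end of the 3′ UTR.
Dynlt3 CPE: tacaatgataaaTTTTATtgaattagtttc
Dynll2 CPE: tttgattttaggTTTTATttttcttatgaa
Dync1i2 CPE: gattggtgtcatTTTTAATacagctgacaa

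No member had such a match in the last 150 bases of the 3′ UTR, where 21.7% of 20298 genes and 25.9% of 7746 genes with at least 5 FPKM in 1 library had one. A polyadenylation signal, AATAAA or ATTAAA in the last 40 bases, was present in 7 of the 9 members and absent in *Dync1h1* and *Dynlrb1*, against 72.7% of all genes. The signals of *Dynll1* and of *Dynlt3*, which went in opposite directions in culture, are shown with the signal in capitals. They lie at chr5:115297130-115297159 and chrX:9654275-9654304, both on the minus strand.
Dynll1 signal: tgttgctatagaAATAAAattggtttgatg
Dynlt3 signal: agttaaaaatatAATAAAgactatcttatt

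The order of the levels was nearly the same in all libraries, and in GV ran from 0.670 to 683 FPKM. *Dynll1* was the highest member in each library and *Dynlrb1* the next. *Dync1i2*, *Dynll2* and *Dynlt3* followed, *Dynll2* lying above *Dync1i2* in GV and below it in the other libraries. *Dync1li2*, *Dync1li1*, *Dync1h1* and *Dync1i1* were all under 5 FPKM everywhere. *Dync1li2* lay above *Dync1li1* except in TubA10, and *Dync1h1* and *Dync1i1* were always the lowest pair. With 1 library per condition it cannot be said which neighbours in this order differ beyond their spread. In GV, *Dynll1* and *Dynlrb1* made up 88.9% of the FPKM of the 9 members, and in MII, TubA10 and TubA20 they made up 69.4%, 78.2% and 61.0%. The sum over all members was 1243 FPKM in GV, 461 in MII, 624 in TubA10 and 382 in TubA20. Without *Dynll1* and *Dynlrb1* it was 138 in GV, 141 in MII, 136 in TubA10 and 149 in TubA20, so that the sums of the other 7 members lay close together. Most of this sum was *Dynll2* and *Dync1i2* (65.3 and 53.2 FPKM in GV), so it says little of the lower members. Among those, *Dync1li2* varied 2.82-fold between its highest and lowest library.

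**Figure D1:**
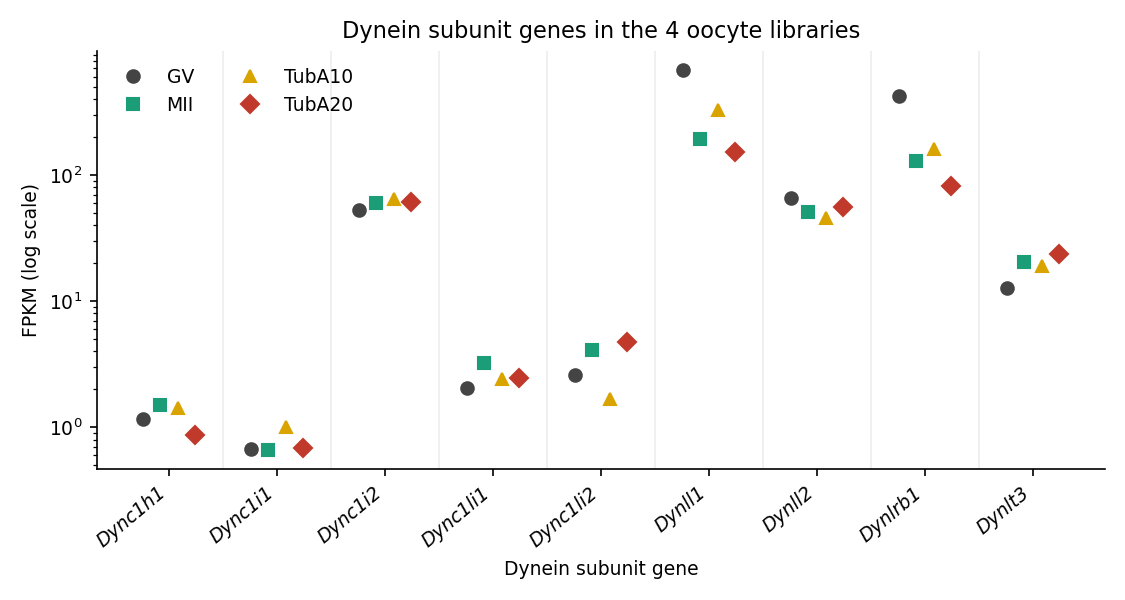
FPKM (log axis) of the 9 dynein subunit genes (horizontal axis), each symbol being 1 library (GV, MII, TubA10 or TubA20). *Dynll1* and *Dynlrb1* lie on top in every library and are highest in GV, at 683 and 423 FPKM, while *Dync1h1* and *Dync1i1* lie near 1 FPKM.

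Read counts are not used here, so no counting interval can be given. As a guide to precision, FPKM times the length of the reference transcript gives a number in proportion to the fragments behind each value (fragments per 1000000 mapped). In GV that was 1385 for *Dynll1*, 289 for *Dynlrb1*, 162 for *Dynll2*, 140 for *Dync1i2* and 27.9 for *Dynlt3*. It was 16.9 for *Dync1h1*, whose transcript is long, 12.1 for *Dync1li2*, 5.36 for *Dync1li1* and 1.74 for *Dync1i1*. Values of *Dync1i1* and *Dync1li1* rest on the fewest fragments and are the least precise of the 9.

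*Dync1h1* (chr12:110601452-110666945, plus strand, GRCm38) encodes the heavy chain, the only motor subunit of this dynein. It had 1.18 FPKM in GV, 1.52 in MII, 1.41 in TubA10 and 0.870 in TubA20. MII was the highest library and TubA20 the lowest. The log2 ratio was 0.21 for MII against GV, 0.15 for TubA10 against GV and −0.22 for TubA20 against GV, and −0.43 for TubA20 against MII. None passed 2-fold, and the highest library was 1.75 times the lowest. The heavy chain gene has 77 exons and a reference transcript of 14342 bases. Of 324 genes with transcripts over 10000 bases, 178 in GV and 198 in TubA20 lay above it, and their median was 1.73 FPKM in GV and 2.18 in TubA20. For the 6581 genes with transcripts of 2000 to 4000 bases it was 2.76 and 2.03 FPKM, so *Dync1h1* lay under the median of shorter transcripts as well.

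Intermediate chains hold the light chains and bind dynactin and NDE1. *Dync1i2* (chr2:71211706-71263303, plus strand), the widely expressed form, stood at 53.2 FPKM in GV, 59.7 in MII, 64.6 in TubA10 and 61.1 in TubA20. It was the steadiest member, with 1.22-fold between its highest and lowest library, and its log2 ratios against GV were 0.16, 0.28 and 0.20. *Dync1i1* (chr6:5725639-6028039, plus strand), the form known from neurons, had 0.670 FPKM in GV, 0.666 in MII, 1.01 in TubA10 and 0.692 in TubA20. TubA10 was the highest and the others lay together, with log2 ratios against GV of 0.00 for MII (just under 0), 0.27 for TubA10 and 0.02 for TubA20, the signs for MII and TubA20 changing with the scaling of the libraries. The ratio of *Dync1i2* to *Dync1i1*, taken within a library and so independent of scaling, was 79.3 in GV, 89.6 in MII, 64.1 in TubA10 and 88.2 in TubA20. With 1 FPKM added to both it was 32.4, 36.4, 32.7 and 36.7, so *Dync1i2* was the prevailing form in every library by either measure.

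Light intermediate chains link the motor to its cargo adaptors. *Dync1li1* (chr9:114688790-114724302, plus strand) stood at 2.06 FPKM in GV, 3.27 in MII, 2.41 in TubA10 and 2.48 in TubA20, with log2 ratios against GV of 0.48, 0.16 and 0.18. MII was the highest library. *Dync1li2* (chr8:104417680-104443047, minus strand) had 2.62 FPKM in GV, 4.10 in MII, 1.67 in TubA10 and 4.72 in TubA20. TubA10 alone lay below GV. Its log2 ratio was 0.49 for MII against GV, −0.44 for TubA10 against GV and 0.66 for TubA20 against GV.

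*Dync1li2* was the member in which the 2 TubA libraries differed most upward. TubA20 was 2.82 times TubA10 in FPKM, with a log2 ratio of 1.10, and only 57 of 7374 genes with at least 5 FPKM in either library had a higher ratio. TubA10 against MII gave −0.93, below all but 16 of 7292 such genes. *Dync1li2* itself did not reach 5 FPKM in any library, and lower genes are measured less precisely than those it is set against. By its titled dose TubA10 lies between MII and TubA20, and its *Dync1li2* value lay outside theirs. The same held for 8 of the 9 members at the deposited scaling, all but *Dync1h1*, and for 7 of 9 under each of the 4 other scalings, which left out *Dync1li1* as well. Of all 16468 genes above 0 in a cultured library 70.7% lay outside too, and of the 7445 with at least 5 FPKM 81.0%, so this was the usual case and nothing particular to the members. The ratio of *Dync1li1* to *Dync1li2* was 0.785 in GV, 0.797 in MII, 1.44 in TubA10 and 0.525 in TubA20, so *Dync1li1* was the higher of the pair in TubA10 only.

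*Dynll1* (chr5:115297110-115300999, minus strand) stood at 683 FPKM in GV, 191 in MII, 327 in TubA10 and 151 in TubA20. GV was the highest library, TubA10 came next, and MII and TubA20 lay below it. MII had 0.280 times the FPKM of GV, TubA10 had 0.480 times and TubA20 had 0.222 times, which are log2 ratios of −1.83, −1.06 and −2.17. Among genes with at least 5 FPKM in 1 of both libraries, 6.15% had a lower ratio than *Dynll1* in MII against GV, 12.9% in TubA10 and 10.7% in TubA20. The gene ranked 152nd by FPKM in GV and 804th in TubA20. The call for TubA10 lies near the threshold, since with equal FPKM sums its log2 ratio was −0.98 and with equal *Gapdh* −0.79. TubA10 was above MII by 0.77, and 96.1% of genes had a lower ratio there, while TubA20 was below TubA10 by a log2 ratio of −1.11.

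*Dynlrb1* (chr2:155236533-155250277, plus strand) had 423 FPKM in GV, 129 in MII, 161 in TubA10 and 81.8 in TubA20. It took the same order of libraries as *Dynll1*, with GV highest and TubA20 lowest. MII had 0.304 times, TubA10 0.380 times and TubA20 0.194 times the FPKM of GV, with log2 ratios of −1.71, −1.39 and −2.35. Of the genes with at least 5 FPKM, 7.77%, 7.31% and 8.32% had lower ratios. TubA20 against MII gave −0.65, within 2-fold. TubA20 against TubA10 gave −0.97, which is within 2-fold at the deposited scaling and past it under the 4 other scalings (−1.01 to −1.16). The ratio of *Dynlrb1* to *Dynll1*, a pair chosen after its values were seen, was 0.620 in GV, 0.673 in MII, 0.491 in TubA10 and 0.541 in TubA20, and so varied less than either gene.

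*Dynll2* (chr11:87979525-87987533, minus strand) encodes LC8 light chain 2, a close relative of LC8 light chain 1. The coding sequences are both 267 bases long and matched at 217 positions (81.3%). Unlike *Dynll1*, it stayed within 2-fold, at 65.3 FPKM in GV, 51.1 in MII, 45.9 in TubA10 and 55.7 in TubA20. GV was again the highest library but the range was 1.42-fold, with log2 ratios against GV of −0.35, −0.50 and −0.22. The ratio of *Dynll1* to *Dynll2* was 10.5 in GV, 3.74 in MII, 7.13 in TubA10 and 2.72 in TubA20. *Dynll1* thus remained the more abundant LC8 transcript in each library, by the least in TubA20.

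*Dynlt3* (chrX:9654267-9663003, minus strand) encodes a Tctex-type light chain that is known to bind the checkpoint protein BUB3. It stood at 12.8 FPKM in GV, 20.5 in MII, 18.9 in TubA10 and 23.6 in TubA20. All 3 cultured libraries lay above GV, opposite to the other light chain members. The log2 ratios were 0.64, 0.53 and 0.83, within 2-fold, and TubA20 had 1.84 times the FPKM of GV.

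**Figure D2:**
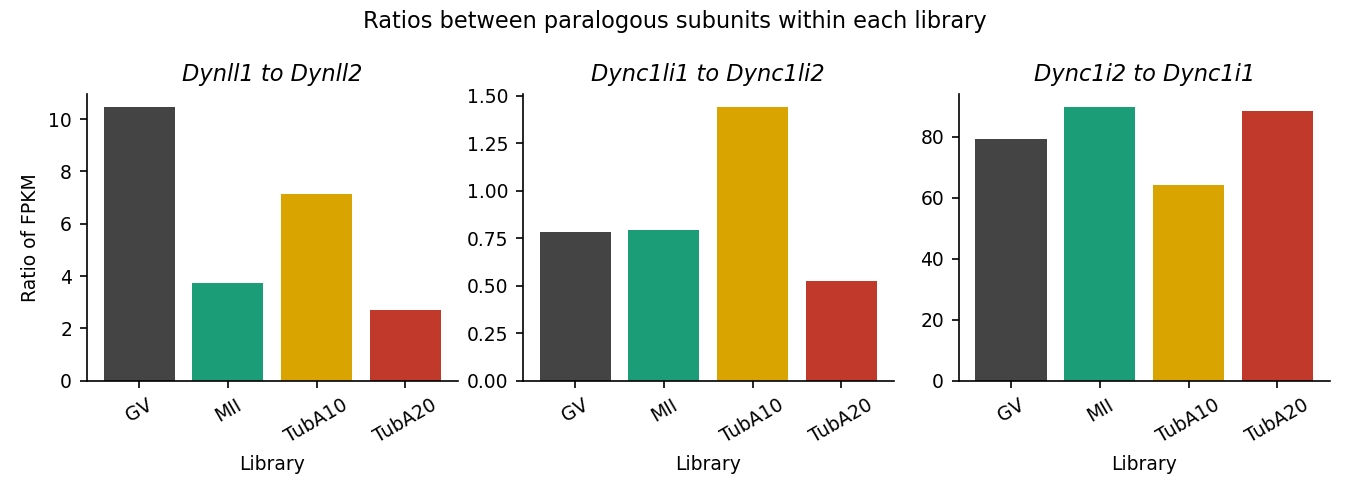
Bars give the ratio of FPKM (linear axis from 0, its own scale in each panel) within each of the 4 libraries for *Dynll1* to *Dynll2*, *Dync1li1* to *Dync1li2* and *Dync1i2* to *Dync1i1*. The LC8 ratio is 10.5 in GV and 2.72 in TubA20, and the light intermediate chain ratio is above 1 in TubA10 only, at 1.44.

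No stretch of 100 bases in a member's reference transcript was shared with transcripts of another annotated gene. On the opposite strand, *Dync1h1* overlaps *Gm17111* and *Gm35558*, *Dync1i1* overlaps *1700019G24Rik*, and *Dync1li2* overlaps *Gm45731* and *K230015D01Rik*. The authors counted with a strand-specific setting.

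Counted over the members, MII against GV had 0 of 9 higher and 2 of 9 lower past 2-fold, *Dynll1* and *Dynlrb1*. Of all 21957 genes 3.05% were higher and 8.34% lower, and of the 7685 genes with at least 5 FPKM 8.26% and 20.8%. TubA10 against GV had the same 2 genes lower and none higher, beside 0.742% higher and 5.6% lower of all genes, and 1.77% and 14.2% of 7579 genes with at least 5 FPKM. TubA20 against GV again had *Dynll1* and *Dynlrb1* lower and none higher, beside 7.61% higher and 11.7% lower of all genes, and 20.2% and 26.8% of 7778 genes with at least 5 FPKM. Of the 5 members that reach 5 FPKM, 2 were lower in each of these comparisons. The comparisons share the GV library, so their counts are not independent of each other. The median log2 ratio of the 9 members was 0.16, 0.15 and 0.02 in MII, TubA10 and TubA20 against GV, and over the 5 members with at least 5 FPKM it turned to −0.35, −0.50 and −0.22. In TubA20 it also turned with a minimum of 1 FPKM (−0.02), a median ratio of 0 (−0.06) and equal upper quartiles (−0.00421). No direction is therefore read from these medians.

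Of the pairs of cultured libraries, TubA20 against TubA10 had shares of all genes past 2-fold close to those of TubA10 against GV. TubA10 against MII had no member past 2-fold, beside 0.515% of all genes higher and 0.128% lower, but *Dync1li2* passed it at pseudocounts of 0.1 (−1.24) and 0.01 (−1.29). TubA20 against MII had none either, beside 0.328% higher and 2.44% lower. The member ratios there ran from −0.65 for *Dynlrb1* to 0.19 for *Dynlt3*. TubA20 against TubA10 had *Dync1li2* higher and *Dynll1* lower, beside 0.66% and 5.52% of all genes. *Dynlrb1* was lower past 2-fold as well under the 4 other scalings. The *Dync1li2* call was lost with equal *Gapdh* (0.98), at 3-fold and, since the gene is too low, with a minimum of 5 FPKM. The medians of the members in these comparisons were −0.06, 0.02 and −0.08.

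**Figure D3:**
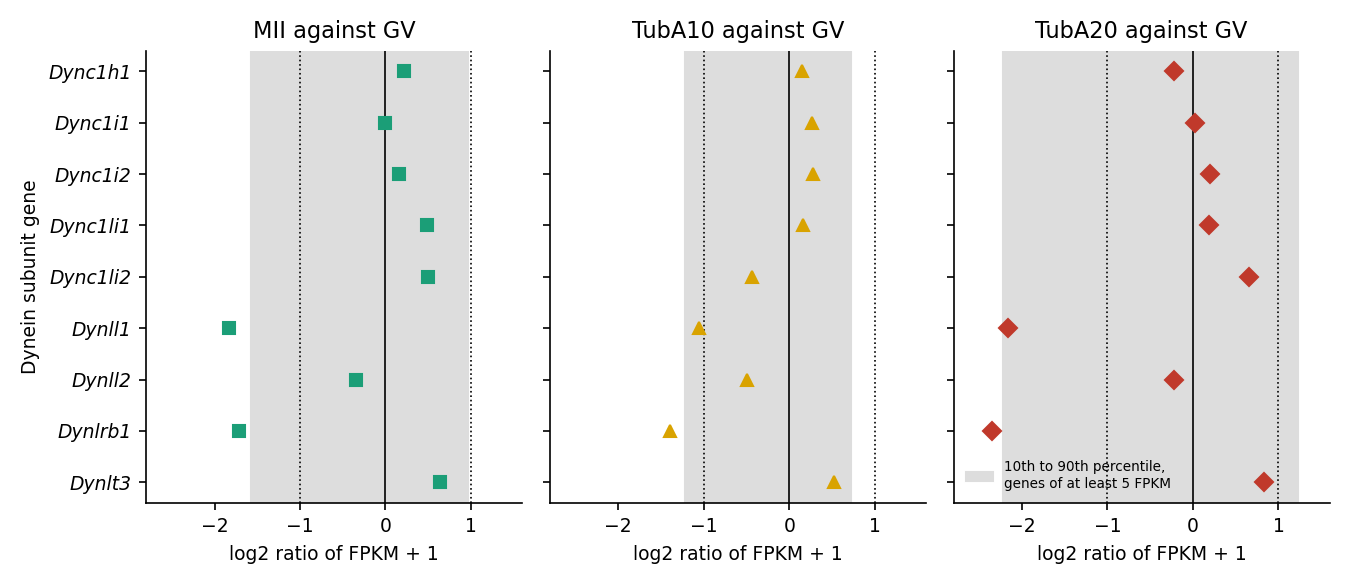
Log2 ratio of FPKM + 1 of each member for MII, TubA10 and TubA20 against GV (1 panel each), with dotted lines at 2-fold and a grey band from the 10th to the 90th percentile of genes with at least 5 FPKM in 1 of both libraries. *Dynll1* and *Dynlrb1* are past the lower line in all 3 panels, reaching −2.17 and −2.35 in TubA20, and the other 7 members lie between the lines.

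Transcript length went with the ratios over all genes. Among genes with at least 5 FPKM, the median log2 ratio of TubA20 against GV was −1.30 for the 638 genes with reference transcripts of up to 1000 bases, −0.56 from 1000 to 2000 bases, 0.28 from 2000 to 4000 bases, 0.70 from 4000 to 10000 bases and 0.90 above that. MII against GV gave −0.92, −0.47, 0.17, 0.56 and 0.80. *Dynlrb1*, at 684 bases the shortest member, falls in the first class, where 55.3% of genes were lower past 2-fold in TubA20. *Dynll1*, at 2030 bases, falls in the third, where 22.3% of 2988 genes were. It lies just above the bound of 2000 bases, and in the class below that bound 41.9% of 1919 genes were lower past 2-fold. *Dynlt3*, at 2176 bases, is in the same class as *Dynll1* and lay on the other side of 0. The part of length in the members' ratios was not tested.

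**Figure D4:**
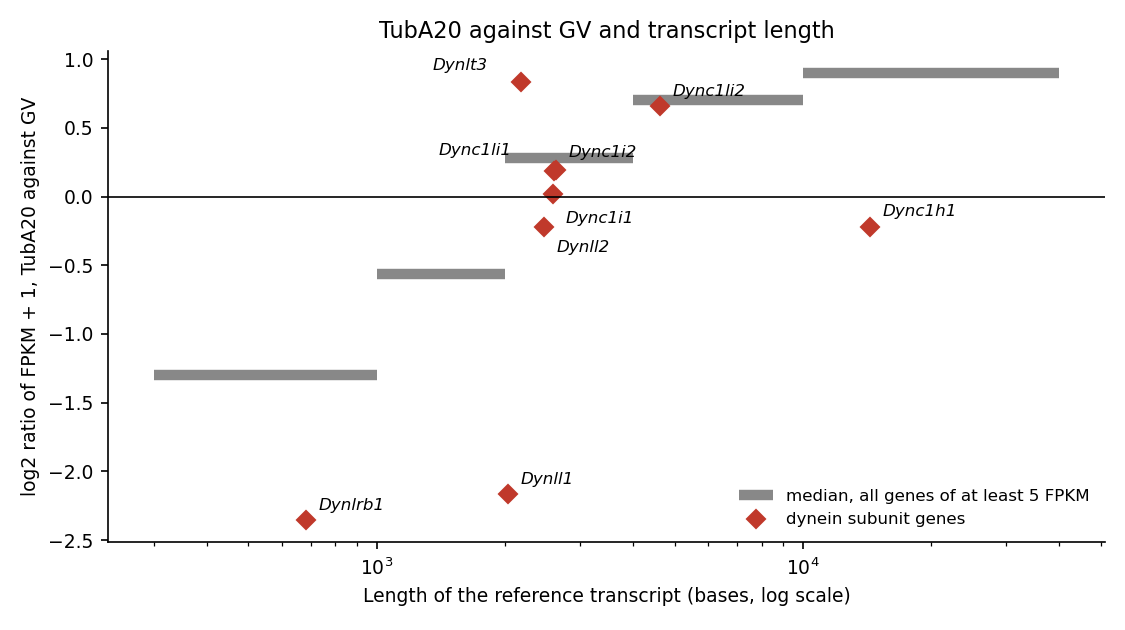
Diamonds give the log2 ratio of FPKM + 1 in TubA20 against GV of each member by the length of its reference transcript (log axis, bases), and grey bars the median of all genes with at least 5 FPKM in each length class. The class medians go from −1.30 to 0.90, and *Dynll1* and *Dynlt3*, of like length, lie at −2.17 and 0.83.

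The letters of the CPE went with the ratios too. Of genes with at least 5 FPKM, 84.7% of those higher past 2-fold in MII than in GV had a match in the 3′ UTR, against 65.0% of those within 2-fold and 30.9% of those lower. In TubA20 against GV the shares were 79.9%, 66.2% and 31.3%. These sets differ in length, with a median 3′ UTR of 1500 bases for genes higher in MII and 369 bases for genes lower. *Dynll1* and *Dynlrb1*, without a match, lay in the lower set. *Dynlt3*, *Dynll2*, *Dync1i2* and *Dync1li2*, each with a match, lay within 2-fold in both comparisons. *Dync1h1*, *Dync1i1* and *Dync1li1* had no match and were within 2-fold as well. These genes and *Dync1li2* did not reach 5 FPKM in any library and so belong to none of these sets. Their ratios also come out too small on the scale of FPKM + 1. The part of these letters in the members' ratios was not tested.

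Partners of the motor were taken as 6 lists with 52 genes. Among 10 further dynein subunits, including those of the intraflagellar transport motor, none was past 2-fold in MII against GV, and in TubA20 against GV 2 were lower. That count was 4 with a median ratio of 0, 3 (with 1 higher) at pseudocounts of 0.1 and 0.01, and 1 with a minimum of 5 FPKM or at 3-fold. The Tctex light chain genes *Dynlt1a*, *Dynlt1b* and *Dynlt1f* lay lowest in TubA20. *Dynlt1a* stood at 49.7 FPKM in GV, 55.9 in MII, 52.9 in TubA10 and 26.4 in TubA20, and *Dynlt1f* at 32.5, 21.5, 28.4 and 9.36. Against MII these were log2 ratios of −1.06 and −1.12 in TubA20, both past 2-fold. *Dynlt1b* was at 44.0, 41.8, 38.3 and 22.7 FPKM. These copies share sequence (43.9% of the 100-base stretches of *Dynlt1a*, 82.0% of *Dynlt1b* and 85.1% of *Dynlt1f* occur in another gene), so the split of reads among them is uncertain. *Tctex1d2*, another light chain gene, was at 32.4, 26.9, 34.2 and 22.7 FPKM.

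Dynactin is the cofactor that couples dynein to cargo. Its 12 genes had a median log2 ratio of −0.59 in MII, −0.44 in TubA10 and −0.71 in TubA20 against GV. With a minimum of 5 FPKM it was −0.56, −0.29 and −0.70, lower than the median of the members in MII and TubA20 and higher than theirs in TubA10. Past 2-fold, 1 was higher and 3 were lower in MII, 1 and 1 in TubA10, and 1 and 5 in TubA20. Of the 11 with at least 5 FPKM, 1 was higher in each comparison, and 3, 1 and 4 were lower. Of all genes at that level, 8.26%, 1.77% and 20.2% were higher and 20.8%, 14.2% and 26.8% lower. In MII the 3 lower became 4 at pseudocounts of 0.1 and 0.01 and 2 with equal FPKM sums or equal *Gapdh*. In TubA10 the 1 higher became 2 at pseudocounts of 0.1 and 0.01 and when upper quartiles, sums of FPKM or *Gapdh* were made equal, while the 1 lower became 2 at both pseudocounts and 0 with equal *Gapdh*. At 3-fold, none was higher in any of these comparisons, and 0, 0 and 3 were lower. *Dctn6*, a subunit of the pointed-end complex, stood at 67.6 FPKM in GV, 26.0 in MII, 38.9 in TubA10 and 11.9 in TubA20, and was the dynactin gene past 2-fold between TubA20 and MII (−1.06). *Dctn3*, a subunit of the shoulder, was at 168, 101, 111 and 101 FPKM. The capping protein genes differed in direction. *Capzb* stood at 63.3 FPKM in GV, 48.3 in MII, 61.8 in TubA10 and 27.4 in TubA20, and *Capza2* at 24.6, 60.3, 49.4 and 60.2. *Capza1*, picked after its values were seen, was at 7.67, 9.13, 19.8 and 6.45 FPKM. It was the 1 higher in TubA10 against GV (1.26), whereas *Capza2* was the 1 higher in MII and in TubA20. TubA10 against MII also had *Capza1* higher past 2-fold (1.04).

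Of the 3 genes for LIS1, NDE1 and NDEL1, none was past 2-fold in MII or TubA10 against GV and 1, *Pafah1b1*, was higher in TubA20. With equal FPKM sums or equal *Gapdh*, 1 was higher in MII too. *Pafah1b1*, which encodes LIS1, stood at 38.6 FPKM in GV, 72.4 in MII, 48.2 in TubA10 and 91.7 in TubA20, a log2 ratio of 1.23 in TubA20 against GV. *Nde1* was at 11.4, 16.2, 19.6 and 18.0 FPKM, and *Ndel1* at 40.7, 49.4, 46.9 and 41.1. The ratio of *Pafah1b1* to *Dync1i2*, chosen after its values were seen, was 0.726 in GV, 1.21 in MII, 0.745 in TubA10 and 1.5 in TubA20, so that TubA10 lay next to GV in it.

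Of 13 activating adaptors and cargo linkers, 3 were higher and 1 was lower past 2-fold in MII against GV, 0 and 1 in TubA10, and 1 and 1 in TubA20. The 1 higher in TubA20 became 0 with a median ratio of 0, equal upper quartiles or at 3-fold, and 2 at a pseudocount of 0.01. In MII the 3 higher became 0 at 3-fold and 2 with a median ratio of 0. That count was 4 at pseudocounts of 0.1 and 0.01 and under the other scalings. In TubA10 the 0 higher became 1 with equal *Gapdh* and at a pseudocount of 0.01. The 1 lower became 0 with a minimum of 5 FPKM in each comparison, and at 3-fold in MII and TubA10. *Spdl1*, the kinetochore adaptor Spindly, had 78.7 FPKM in GV, 172 in MII, 134 in TubA10 and 149 in TubA20. *Nin*, which encodes ninein, was at 43.0, 95.1, 70.3 and 68.8 FPKM, and *Numa1*, the spindle pole protein NuMA, at 22.5, 28.5, 28.3 and 36.8. *Rilp*, the lysosomal linker, was at 3.74, 1.03 and 0.793 FPKM in GV, MII and TubA10 and was listed at 0 in TubA20. The RZZ complex recruits Spindly and dynein to kinetochores. Of its genes *Zwilch* was at 16.5, 25.8, 21.2 and 39.9 FPKM (log2 ratio 1.23 in TubA20 against GV), *Zw10* at 34.5, 34.0, 39.1 and 28.2, and *Kntc1* at 7.49, 8.10, 7.71 and 7.22. The 11 heavy chain genes of axonemal dyneins, the motors of cilia, had none past 2-fold in any comparison. With a pseudocount of 0.1, 1 was lower in MII, 1 in TubA10 and 2 in TubA20 against GV. A pseudocount of 0.01 gave the same lower counts and also 1 higher in MII. *Dnah2*, picked after its values were seen, had 1.03 FPKM in GV and 0.169, 0.314 and 0.126 in MII, TubA10 and TubA20. The highest, *Dnah8*, was at 6.14, 5.92, 5.44 and 6.06 FPKM, above the *Dync1h1* levels given earlier, and *Dnah10* and *Dnah11* were between 2.59 and 4.35 FPKM in all libraries.

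**Figure D5:**
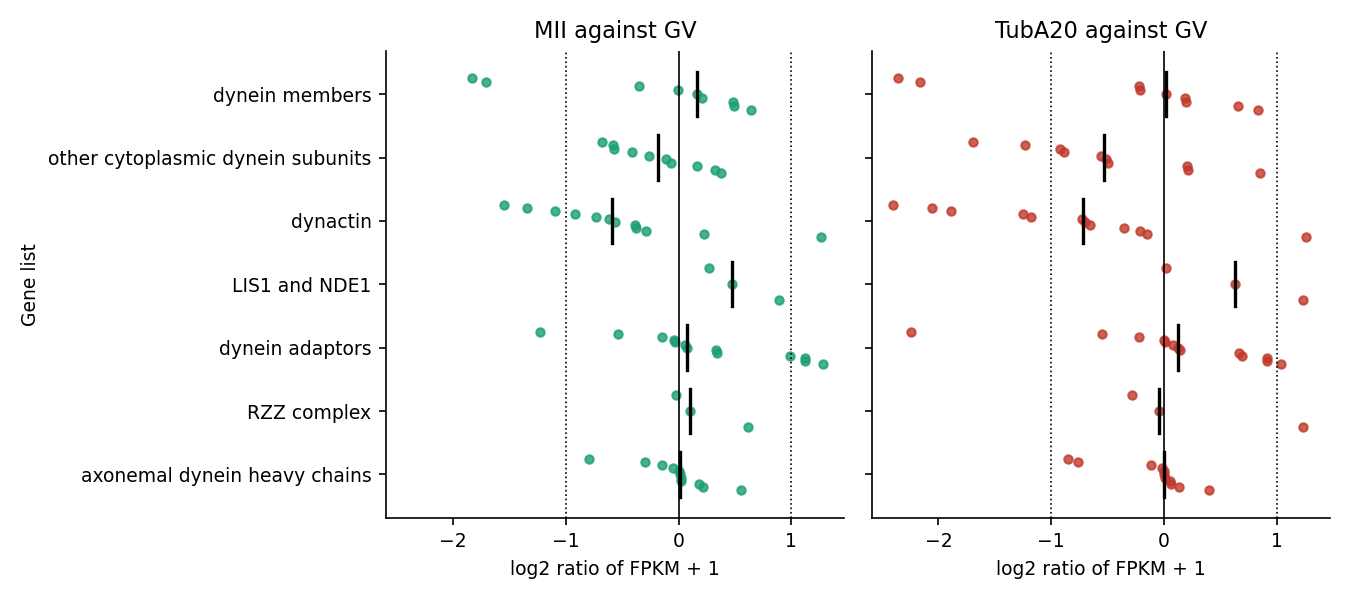
Log2 ratio of FPKM + 1 in MII and in TubA20 against GV (1 panel each) for the members and the 6 partner lists, each point being a gene, each black bar the median of its list and dotted lines 2-fold. The dynactin medians lie at −0.59 in MII and −0.71 in TubA20, and the member medians at 0.16 and 0.02, which turn to −0.35 and −0.22 over the members with at least 5 FPKM.

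The genes most like *Dync1h1*, by the Euclidean distance over the 3 log2 ratios against GV, were *Trim44* (distance 0.0714), *Prom1* (0.0927) and *Isyna1* (0.101). Those most like *Dynll1* were *Ubxn11* (0.0919), *Clec10a* (0.0930) and *Get4* (0.10). Within a distance of 0.25 there were 81 of 7897 genes for *Dync1h1* and 33 of 7896 for *Dynll1*. The distances rest on 4 libraries, and all 3 ratios share GV. *Dync1h1* had only 1.18 FPKM in GV, so adding 1 FPKM shrinks its ratios more than those of genes with at least 5 FPKM. Its likeness to them therefore holds on the scale of FPKM + 1 only. In FPKM, TubA20 had 0.740 times the GV value of *Dync1h1*, while *Trim44* stood at 8.25 FPKM in GV and 7.25 in TubA20.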

How the data were processed

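RNA-seq libraries were made for the authors by a service company from pools of 100 oocytes (oligo(dT) selection, paired reads of 100 cycles). The methods name a PicoPure kit for the extraction and the labels TRIzol. The submitters' processing notes name STAR 2.5.0, Cufflinks and Cuffdiff 2.2.1 on mm10. The authors deposited 1 table of FPKM values, made with cufflinks for a strand-specific library and so already divided by transcript length and mapped fragments. Of its 21959 entries, 21794 were given a symbol by Ensembl identifier and 165 were kept without one. Entries sharing a symbol were added up (21957 genes). FPKM have no read counts beside them, and they are relative to the other RNA of a library, so that a large difference in a few abundant genes shifts all others.

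Log2 ratios of FPKM + 1 were computed for the 6 pairs of libraries, and genes past 2-fold were counted. No count model was used and no test was possible with 1 library per condition. The members and lists were chosen with earlier results of these data known. All 9 members were named. From each partner list, the rule named the 3 genes with the highest mean FPKM and every gene past 2-fold between TubA20 and MII. For *Dync1h1* and *Dynll1*, the 3 most alike genes with at least 5 FPKM in 1 library were named. Alternatives were pseudocounts of 0.1 and 0.01, minimums of 1 and 5 FPKM, 4 scalings (median ratio, FPKM sum, upper quartile, *Gapdh*), the highest entry of a symbol, and a 3-fold threshold. 3′ UTRs, transcript lengths and coordinates are from GENCODE M21 (GRCm38, the same assembly as mm10), and promoters are from RefSeq (GRCm38.p6). The log2 ratio and the 2-fold call were tested on simulated libraries in which only abundant genes were changed, and the other steps were not tested in that way. Python 3.11.15, numpy 2.4.6, pandas 2.3.3 and matplotlib 3.10.9 were used.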

Additional observations from a re-analysis of the deposited data

How the results depend on the processing

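Counts of members past the threshold, single ratios and list medians were recomputed under each alternative. No single member past 2-fold changed to the opposite direction, but the median of the members turned with a minimum of 5 FPKM, from 0.16 to −0.35 (MII), 0.15 to −0.50 (TubA10) and 0.02 to −0.22 (TubA20) against GV, and from −0.06 to 0.11 in TubA10 against MII. In TubA20 it also turned against GV with a minimum of 1 FPKM (−0.02), a median ratio of 0 (−0.06) and equal upper quartiles (−0.00421), and against MII, from 0.02, with a minimum of 1 FPKM (−0.13) and all 4 scalings (−0.12 to −0.03). For TubA10 against GV, the 2 members lower became 1 with equal FPKM sums or equal *Gapdh* and 0 at 3-fold. For TubA10 against MII, 0 lower became 1 with pseudocounts of 0.1 or 0.01 (*Dync1li2*, −1.24 and −1.29). For TubA20 against TubA10, the 1 higher became 0 with a minimum of 5 FPKM, with equal *Gapdh* and at 3-fold, and the 1 lower became 2 under the 4 scalings (*Dynlrb1*, −1.01 to −1.16) and 0 at 3-fold. In TubA20 against GV, *Dynll1* stayed between −2.35 and −2.10 and *Dynlrb1* between −2.54 and −2.29. In MII against GV they stayed between −1.95 and −1.60 and between −1.83 and −1.48. Scaling moved MII, TubA10 and TubA20 against GV by −0.13, −0.14 and −0.19 (median ratio) up to 0.23, 0.27 and 0.07 (*Gapdh*). Signs of small ratios changed with the scaling for *Dync1i1* (MII and TubA20 against GV, TubA20 against MII), *Dync1i2* and *Dynll2* (TubA20 against MII) and *Dync1li1* (TubA20 against TubA10). No paired analysis was possible because each condition has 1 library. The cause of these shifts was not tested. Of the other recomputed values (list counts, medians and ratios between genes), 101 were labelled as moved and 1051 were not. Counts that changed little, medians that kept their sign and ratios that stayed on their side of 1 were not labelled as moved. The 1051 therefore include values that changed. The dynactin genes lower in MII against GV, for example, went from 3 to 4 at a pseudocount of 0.1.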
